A study of Homo sapiens with 12 samples.

Results

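The genes described here are 50 members of the TGF-beta and BMP signaling pathways, out of 20033 protein-coding genes of the annotation, and what was measured is the accessibility of the chromatin around them. Members were taken from a fixed list of symbols, and each was followed in the 100-bp bins that lie within 50 kb of any of its transcription start sites (TSS) in GENCODE v44 on GRCh38. Bins within 1 kb of a TSS are called the promoter and the others distal. The DU-145 table held 4888 of its 709366 bins in these zones, 1339 of them in promoters, and the BT-549 table held 3563 of 472994, 1183 of them in promoters. By role the list holds 10 ligands, 6 proteins of ligand latency and activation, 13 receptors and coreceptors, 8 SMADs, 7 ubiquitin ligases and corepressors, 3 secreted antagonists and the 3 target genes ID1, ID2 and ID3.

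Chromatin accessibility was profiled by ATAC-seq, in which a transposase cuts DNA that nucleosomes leave free, in 2 human cancer cell lines. DU-145 is a castration-resistant prostate cancer (CRPC) line and BT-549 is a triple-negative breast cancer (TNBC) line, and both carried the tet-MUC1shRNA construct, a hairpin against MUC1 that doxycycline (DOX) switches on. Each line gave 3 vehicle libraries (0.1% DMSO) and 3 DOX libraries, 12 in all. The methods describe the replicates as biologically independent. In such bulk samples a smaller share of cells with an open site and less opening in each cell cannot be told apart. No library of cells with DOX and a control hairpin was analysed here, so silencing of MUC1 and DOX itself cannot be told apart.

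As background, ligands of the TGF-beta family are secreted as dimers, and TGF-beta itself is held in a latent complex that LTBP proteins anchor to the matrix. A ligand brings together type II and type I receptor kinases, the type I receptor phosphorylates the receptor-regulated SMADs, and these enter the nucleus with SMAD4. SMAD2 and SMAD3 carry the TGF-beta and activin branch, whereas SMAD1, SMAD5 and SMAD9 carry the BMP branch, of which the ID genes are classical targets. SMAD6 and SMAD7, the SMURF ligases, SKI, SKIL and the TGIF proteins dampen the signal. In carcinoma cells the pathway is known for restraining growth and for driving the epithelial-mesenchymal transition.

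Values are given as CPM per bin, the coverage of a bin scaled to the summed coverage of its library, so that a mean bin stands at 1.41 in the DU-145 table and 2.11 in the BT-549 table. The summed coverage of the vehicle libraries was 12370094 to 24001285 in DU-145 and 9142900 to 13606129 in BT-549. That of the DOX libraries was 16337380 to 25232000 in DU-145 but only 2502510 to 3267024 in BT-549. This depth gap runs along the BT-549 contrast, and its part in the BT-549 results was not tested. The MUC1 promoter fell in DU-145 from 2.14, 2.14 and 1.97 CPM with vehicle to 1.48, 1.67 and 1.6 with DOX (log2 fold change -0.39, adjusted p = 3.5e-04), and in BT-549 it stood at 3.0, 3.47 and 2.91 with vehicle and 2.55, 2.57 and 2.64 with DOX (log2 fold change -0.28, adjusted p = 0.052). The hairpin acts on the transcript, and accessibility does not check the knockdown. Among the cell type markers reported here, the DU-145 table held promoter bins for the epithelial genes EPCAM, CDH1, KRT8 and KRT18, the mesenchymal genes VIM and ZEB1 and the leukocyte gene PTPRC, and the BT-549 table for the mesenchymal VIM, ZEB1, CDH2 and TWIST1. The prostate markers HOXB13 and KLK3 had no promoter bin in DU-145, and no epithelial marker had one in BT-549. With DOX, CDH1 (0.44 on the log2 scale) and PTPRC (2.64, 7 bins, from a mean of 0.127 to 0.812 CPM) rose and KRT18 (-0.31) and VIM (-0.32) fell in DU-145, whereas VIM (0.61) and ZEB1 (1.01) rose in BT-549. The DU-145 groups overlapped for CDH1 and KRT18. Relative to the median of all promoters, KRT18 changed by -0.145 and VIM by -0.153 in DU-145. EPCAM, KRT8 and ZEB1 in DU-145 and CDH2 and TWIST1 in BT-549 had no adjusted p under 0.05. The part of these markers in the results below was not tested.

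For each promoter or distal zone the rounded sum of its bins entered the quasi-likelihood test of edgeR, with the column sum as library size, and called higher or lower at an adjusted p under 0.05 over all protein-coding genes of the table. Promoter bins were present for 47 members in each table. INHBB, a chain of activin B, and NODAL, a ligand of the early embryo, had none in either line, BMP7 had none in DU-145 and ENG, an endothelial coreceptor, had none in BT-549. In DU-145 vehicle cells the most accessible promoter was that of the corepressor SKIL, at 7.92 ± 0.199 CPM (mean ± SD, n = 3), followed by ADAM17 at 6.27 ± 0.452 and the type I receptor TGFBR1 at 5.82 ± 0.0584. SKIL lay above all other promoters in every vehicle library, and the libraries of ADAM17 lay just above those of TGFBR1. The least accessible were BMP2 at 0.275 ± 0.125, ENG at 0.255 ± 0.0608 and GDF15 at 0.325 ± 0.0738, which overlapped each other. In BT-549 vehicle cells SKIL (6.23 ± 0.895) and TGFBR1 (5.94 ± 0.149) again headed the list and overlapped, and the lowest, TGFB1 (1.03 ± 0.128), BMP7 (1.13 ± 0.173) and TGIF2 (1.15 ± 0.16), also overlapped.

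The first comparison asks how the promoters differ between DOX and vehicle DU-145 cells. Of the 47 promoters, 5 were higher and 18 lower with DOX, against 8.27% higher and 39.0% lower among all promoters tested, that is 10.6% and 38.3% of the members. The shares of the members were close to those of all promoters. No member changed as much as 2-fold, and the median log2 fold change was -0.03 for the members and -0.17 for all promoters. The split follows this shift of the median: with TMM factors or the size factors of DESeq2, which bring the median of all promoters to 0.00, 10 were higher and 10 lower, and with a trend on GC content removed 11 were higher and 10 lower. The 5 higher promoters and 10 of the 18 lower ones kept their call with TMM factors, and none turned. Without DOX replicate 2 or DOX replicate 3, 3 promoters were higher, and in the single highest bin of each promoter 2 were higher and 19 lower.

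The promoter of ADAM17, a membrane protease that sheds receptors and growth factors from the cell surface, fell most. It stood at 6.79, 6.06 and 5.96 CPM in vehicle and 3.25, 3.88 and 4.05 in DOX libraries (log2 fold change -0.75, SE 0.07, adjusted p = 1.6e-11), a change of -0.58 relative to the median promoter. All 3 DOX libraries lay below all 3 vehicle libraries. By contrast, the promoter of THBS1, which encodes the TGF-beta activator thrombospondin 1, stood at 1.71, 2.02 and 2.0 CPM in vehicle and 2.2, 2.33 and 2.3 in DOX libraries and was higher (log2 fold change 0.25, SE 0.09, adjusted p = 0.023). This call was lost without vehicle replicate 1, DOX replicate 2 or DOX replicate 3, with adjusted p up to 0.14, and in its highest bin (0.01 on the log2 scale). The 4 LTBP promoters had log2 fold changes of -0.03 to 0.12 and none was called.

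Among the ligands, BMP4, a bone morphogenetic protein, was the only one called higher and INHBA, which encodes the chain of activin A, the only one called lower, of 7 with promoter bins. BMP4 read 0.577, 0.467 and 0.455 CPM in vehicle and 0.484, 0.766 and 0.675 in DOX libraries (log2 fold change 0.37, SE 0.14, adjusted p = 0.02). The groups overlapped for BMP4, and its call was lost without vehicle replicate 2 or 3 or DOX replicate 2 or 3, with adjusted p up to 0.20, and in its highest bin (0.43 on the log2 scale, adjusted p = 0.088). INHBA read 1.58, 1.9 and 1.69 CPM with vehicle and 1.44, 1.08 and 1.34 with DOX (log2 fold change -0.43, SE 0.13, adjusted p = 0.0037), with every DOX library below every vehicle library, but was not called with TMM factors. The 3 TGF-beta genes gave log2 fold changes of -0.02 for TGFB1, 0.20 for TGFB2 and 0.01 for TGFB3, none of them called.

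Of the 13 receptor promoters, 8 were lower and none higher, with a median of -0.26, below that of all promoters. BMPR1A, a type I receptor for BMPs, read 4.21, 4.6 and 4.35 CPM in vehicle and 3.17, 3.25 and 3.27 in DOX libraries (log2 fold change -0.44, SE 0.07, adjusted p = 2.0e-06). ACVR1C, the type I receptor also called ALK7, read 4.38, 4.54 and 4.07 with vehicle and 3.55, 2.88 and 3.21 with DOX (log2 fold change -0.44, SE 0.08, adjusted p = 1.2e-05). In both, the groups stood apart. The other called receptors, BMPR2, TGFBR3, ACVR1B, ACVR2A, TGFBR1 and ACVR1, had log2 fold changes from -0.41 for BMPR2 to -0.24 for ACVR1, and of all 8 only BMPR1A, ACVR1C and BMPR2 kept the call with TMM factors. TGFBR2, ACVR2B, BMPR1B, ENG and BAMBI, a pseudoreceptor that lacks the kinase, ranged from -0.16 for TGFBR2 to 0.36 for ENG and were not called.

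The SMAD promoters split. SMAD3, a mediator of the TGF-beta and activin branch, read 1.63, 1.68 and 1.59 CPM in vehicle and 2.19, 2.67 and 2.36 in DOX libraries (log2 fold change 0.56, SE 0.07, adjusted p = 3.2e-09), a gain of 0.73 relative to the median promoter. It was the largest gain among the members in DU-145. In the single highest bin of this zone, which holds several start sites, the sign turned to -0.11 with an adjusted p of 0.44. SMAD2, its partner in the same branch, read 4.59, 4.77 and 4.73 with vehicle and 3.0, 3.14 and 3.46 with DOX (log2 fold change -0.55, SE 0.07, adjusted p = 2.5e-08), and the inhibitory SMAD6 read 3.06, 3.21 and 2.95 with vehicle and 1.81, 2.24 and 2.25 with DOX (log2 fold change -0.55, SE 0.08, adjusted p = 1.9e-07). SMAD4, the common partner, was lower as well, with a log2 fold change of -0.45. SMAD1, SMAD5, SMAD7 and SMAD9 lay between -0.02 and 0.03 and were not called.

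Of the ubiquitin ligases and corepressors, SKIL read 7.75, 8.14 and 7.86 CPM in vehicle and 5.76, 5.48 and 5.63 in DOX libraries (log2 fold change -0.50, SE 0.06, adjusted p = 4.1e-09), and SMURF2 was lower by a log2 fold change of -0.24 with overlapping groups. SMURF1, SKI, TGIF1, TGIF2 and PMEPA1 were not called. Among the secreted antagonists, NOG, which binds BMPs, read 1.74, 1.87 and 1.8 with vehicle and 2.45, 2.65 and 2.53 with DOX (log2 fold change 0.49, SE 0.09, adjusted p = 1.3e-05). FSTL3, which binds activins, read 1.69, 1.78 and 1.78 with vehicle and 2.2, 2.68 and 2.48 with DOX (log2 fold change 0.49, SE 0.08, adjusted p = 7.7e-07). Every DOX library lay above every vehicle library for both, although the call of FSTL3 was lost in its highest bin (0.02 on the log2 scale). FST, follistatin itself, had a log2 fold change of 0.16 and was not called.

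All 3 ID promoters, which belong to inhibitors of basic helix-loop-helix factors, were lower in DU-145 DOX cells. ID1 read 4.59, 5.04 and 4.66 CPM in vehicle and 3.0, 3.45 and 3.63 in DOX libraries (log2 fold change -0.50, SE 0.08, adjusted p = 3.4e-07). ID2 read 4.56, 4.05 and 4.0 with vehicle and 2.92, 2.9 and 3.11 with DOX (log2 fold change -0.50, SE 0.06, adjusted p = 6.2e-09). ID3 read 1.46, 1.59 and 1.48 with vehicle and 0.922, 1.41 and 1.05 with DOX (log2 fold change -0.42, SE 0.12, adjusted p = 0.0044). The groups stood apart for each gene. Relative to the median promoter the changes were -0.34 for ID1, -0.33 for ID2 and -0.25 for ID3, and with TMM factors ID1 and ID2 kept the call whereas ID3 did not.

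**Figure D1:**
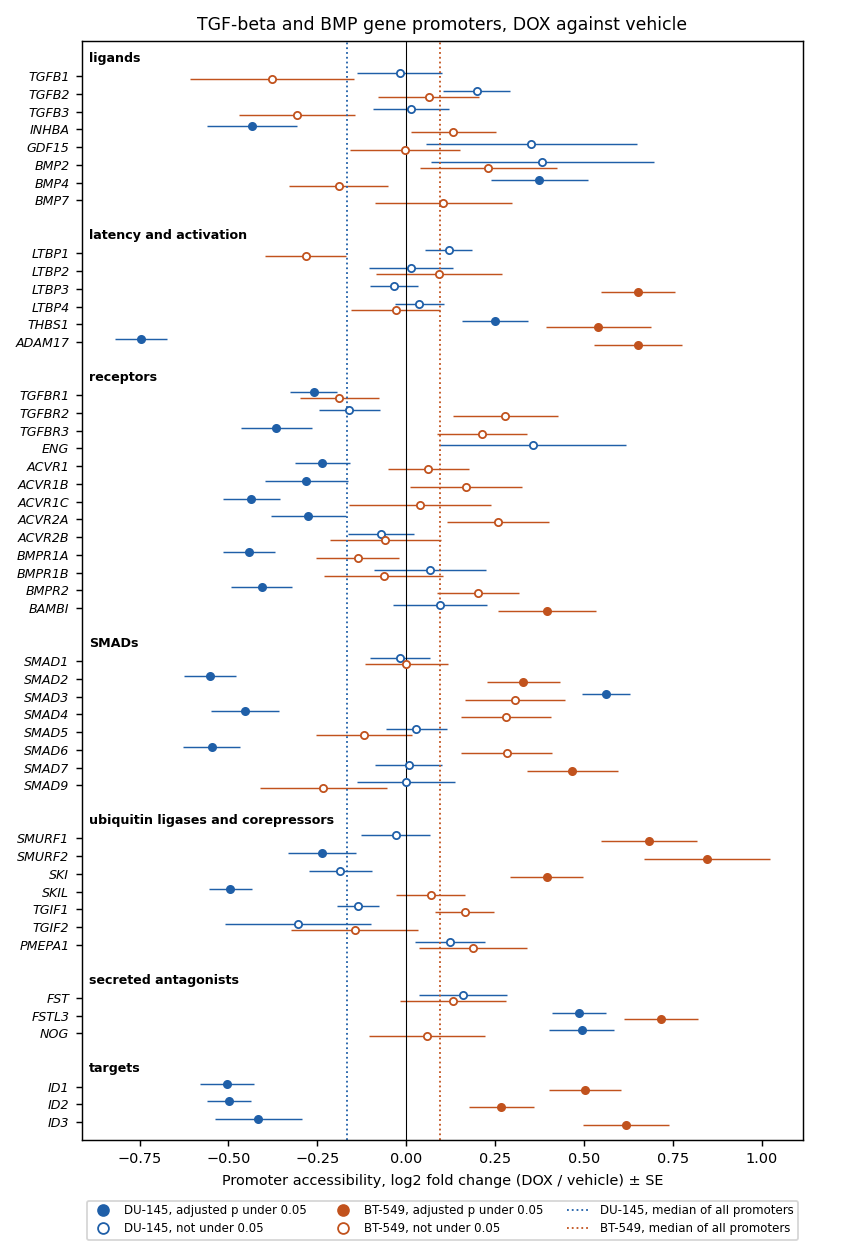
Log2 fold change of promoter accessibility with DOX over vehicle (x axis) for each member with promoter bins (y axis, grouped by role), in DU-145 (blue) and BT-549 (orange). Points are edgeR estimates with their SE from 3 libraries a group, filled points have an adjusted p under 0.05, and the dotted lines mark the median of all promoters of each line, at -0.17 and 0.10. The ID genes, ADAM17 and SMAD2 have filled points on opposite sides of 0.

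The same comparison in BT-549 cells gave another picture. Of 47 promoters, 13 were higher and none lower with DOX by edgeR's quasi-likelihood test, against 18.7% higher and 6.69% lower among all promoters tested, and the member share called higher was 27.7%. At an unadjusted p under 0.05, 1 promoter was lower, that of LTBP1 (-0.28). The median log2 fold change was 0.16 for the members and 0.10 for all promoters, and no member changed as much as 2-fold. With TMM factors or the size factors of DESeq2, 10 were higher and LTBP1 was lower, and with the GC trend removed 9 were higher and 3 lower. DESeq2 called 10 higher and 1 lower, and in the single highest bin of each promoter 5 were higher and 4 lower. Of the 13 higher promoters only ADAM17, FSTL3, SKI and SMURF2 kept the call in the highest bin.

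SMURF2, a ubiquitin ligase that targets receptors and SMADs for degradation, gained most, from 1.77, 1.52 and 1.37 CPM in vehicle to 2.49, 3.1 and 2.82 in DOX libraries (log2 fold change 0.85, SE 0.18, adjusted p = 4.7e-04). SMURF1, its relative, went from 2.23, 2.38 and 2.71 to 4.49, 3.42 and 3.82 (log2 fold change 0.68, SE 0.13, adjusted p = 2.0e-04). FSTL3 went from 1.76, 1.95 and 1.76 to 3.15, 2.6 and 3.22 (log2 fold change 0.72, SE 0.10, adjusted p = 2.7e-06). In these 3 every DOX library lay above every vehicle library. The corepressor SKI was also higher (0.40), whereas SKIL (0.07), TGIF1 (0.16), TGIF2 (-0.15) and PMEPA1 (0.19) were not called on this log2 scale.

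In the latency and activation group 3 of 6 rose, LTBP3, THBS1 and ADAM17. LTBP3, an anchor of latent TGF-beta, went from 2.32, 2.6 and 1.97 CPM to 3.29, 3.81 and 3.73 (log2 fold change 0.65, SE 0.10, adjusted p = 1.1e-05). ADAM17 went from 3.35, 3.37 and 3.28 to 6.63, 4.38 and 4.78 (log2 fold change 0.65, SE 0.12, adjusted p = 1.4e-04). Groups stood apart in both, with DOX replicate 1 of ADAM17 well above the other DOX libraries. The calls of LTBP3 and SMURF1 were lost in the highest bin, with log2 fold changes of 0.18 and 0.62. THBS1 was higher by 0.54, and LTBP1, LTBP2 and LTBP4 ranged from -0.28 to 0.09 without a call.

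None of the 8 ligand promoters was called in BT-549, where they ranged from -0.38 for TGFB1 to 0.23 for BMP2. Of 12 receptors only BAMBI was called (0.40), and of 8 SMADs SMAD7, the inhibitor of TGF-beta receptors (0.47), and SMAD2 (0.33) were higher. SMAD3 read 1.6, 1.54 and 1.65 CPM in vehicle and 1.3, 2.3 and 2.29 in DOX libraries, with DOX replicate 1 below all vehicle libraries, and was not called. The 3 ID promoters were higher. ID1 went from 4.8, 4.32 and 4.31 to 5.93, 7.23 and 5.95 (log2 fold change 0.50, SE 0.10, adjusted p = 2.9e-04). ID3 went from 2.29, 2.6 and 2.28 to 3.67, 3.88 and 3.47 (log2 fold change 0.62, SE 0.12, adjusted p = 2.0e-04). ID2 went from 2.6, 2.53 and 2.74 to 3.26, 3.19 and 3.02 (log2 fold change 0.27, SE 0.09, adjusted p = 0.026). No DOX library overlapped a vehicle library for any of them, but with TMM factors ID2 was not called. In the single highest bin none of the 3 ID promoters was called.

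Set side by side over the 46 members measured in both lines, THBS1 and FSTL3 were higher with DOX in both, and none was lower in both. Lower in DU-145 and higher in BT-549 were 6, namely ADAM17, SMAD2, SMURF2, ID1, ID2 and ID3. With TMM factors only ADAM17 and ID1 of these 6 kept both calls, and THBS1 and FSTL3 kept theirs. In the single highest bin only ADAM17 of the 6 kept both calls. There THBS1 lost its call in both lines and FSTL3 in DU-145. The median of all promoters was -0.17 in DU-145 and 0.10 in BT-549, and the share of all promoters with opposite calls was not counted. The difference between the DOX effects was then tested in 1 edgeR model over all 12 libraries and the bins that both tables hold. The effect was higher in BT-549 for 15 members and lower for 3, against 22.3% and 8.35% of all promoters. The median difference was 0.13 for the members and 0.14 for all promoters. With TMM factors the split was 9 to 6, with the size factors of DESeq2 9 to 7, with the GC trend removed 8 to 6, and 21 to 2 with column sums over all bins of each table.

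ADAM17 differed most between the lines in its DOX effect, by 1.22 on the log2 scale (SE 0.14, adjusted p = 1.7e-08). SMURF2 followed at 1.0 (adjusted p = 1.0e-04), ID3 at 0.85 (adjusted p = 2.3e-04) and ID1 at 0.83 (adjusted p = 2.3e-06). SMAD2 (0.70), SMAD6 (0.67) and ID2 (0.59) came next. These 7, with LTBP3, kept the call with TMM factors, with the size factors of DESeq2 and with the GC trend removed. In the single highest bin of each promoter the split was 11 to 3, and ID2 and LTBP3 lost the call. BMP4 (-0.69), NOG (-0.62) and LTBP1 (-0.34) differed the other way, with the higher effect in DU-145. On the shared bins ADAM17 read 9.97, 8.97 and 8.82 CPM in DU-145 vehicle, 5.28, 6.21 and 6.49 in DU-145 DOX, 4.1, 4.11 and 4.04 in BT-549 vehicle and 7.85, 5.11 and 5.66 in BT-549 DOX libraries. The lines stood apart with vehicle and overlapped with DOX.

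**Figure D2:**
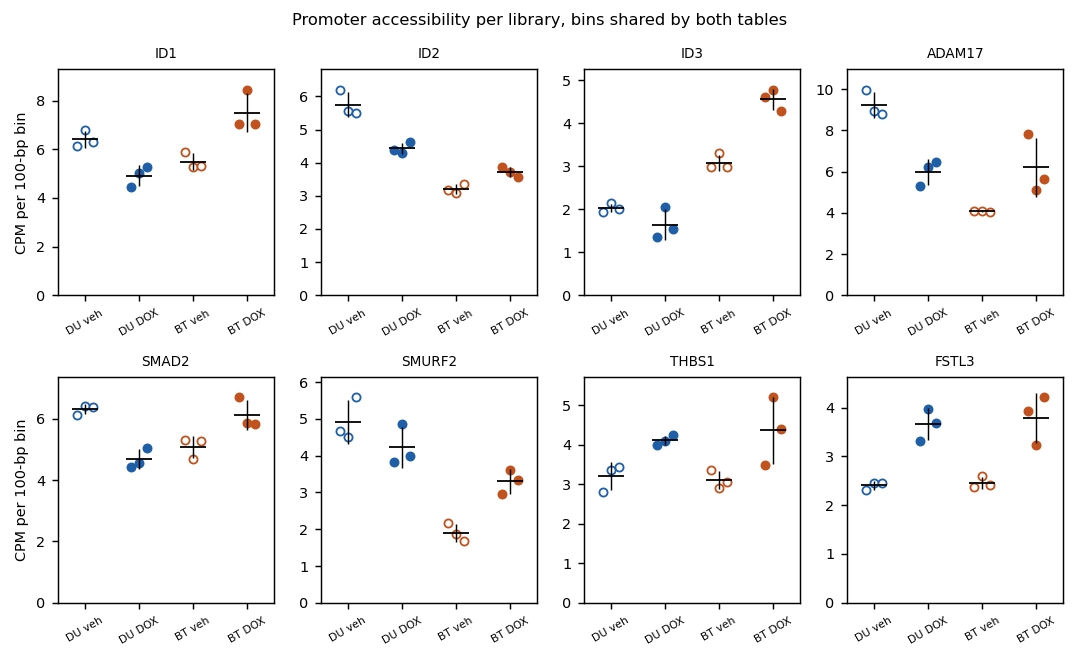
Promoter accessibility (y axis, CPM per 100-bp bin over the bins shared by both tables) in each library for 8 members, by line and treatment (x axis, DU for DU-145, BT for BT-549, veh for vehicle). Open points are vehicle and filled points DOX libraries, and black marks give the mean ± SD of 3 libraries. The means of the first 6 panels are lower with DOX in DU-145 and higher in BT-549, and those of THBS1 and FSTL3 are higher in both lines.

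The lines were also compared with vehicle alone, over the 46 members with shared promoter bins. In BT-549 the promoters of 14 members were more accessible and those of 17 less accessible than in DU-145, against 34.0% and 40.4% of all promoters, and the medians were -0.05 and -0.06. In the single highest bin of each promoter 9 were higher and 25 lower. There LTBP2, SMAD5, TGFBR3 and TGIF2 lost the higher call, ID1 and NOG lost the lower call, and SKI turned from higher to lower. The largest differences were in ligands, of which 4 were higher and 1 lower among 7. BMP2 read 0.237, 0.561 and 0.313 CPM in DU-145 and 2.76, 2.61 and 3.12 in BT-549 (log2 fold change 2.83, SE 0.24, adjusted p = 9.5e-14). GDF15, a stress-induced family member, read 0.326, 0.525 and 0.46 in DU-145 and 2.66, 2.61 and 3.14 in BT-549 (log2 fold change 2.63, SE 0.24, adjusted p = 4.3e-13). The groups stood far apart, although only 6 shared bins lie behind BMP2 and 5 behind GDF15. BMP4 (1.28) and INHBA (1.09) were higher as well, and TGFB1 was lower (-0.60). BMP4 read 0.769, 0.629 and 0.614 in DU-145 and 1.63, 1.67 and 1.56 in BT-549.

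Receptors differed in both directions. BMPR1B, a type I BMP receptor, read 0.907, 1.16 and 1.2 CPM in DU-145 and 3.14, 2.9 and 3.37 in BT-549 (log2 fold change 1.52, SE 0.14, adjusted p = 9.6e-13), and BAMBI read 1.85, 1.46 and 1.96 in DU-145 and 3.98, 3.81 and 4.06 in BT-549 (log2 fold change 1.18, SE 0.12, adjusted p = 3.5e-11). ACVR1C went the other way, with 10.9, 11.5 and 10.2 in DU-145 and 2.23, 2.43 and 2.99 in BT-549 (log2 fold change -2.11, SE 0.11, adjusted p = 7.3e-21). TGFBR2, the type II receptor of TGF-beta (-0.61), and TGFBR1 (-0.31) were lower in BT-549, and the coreceptor TGFBR3 was higher (0.47). Among the SMADs, SMAD5 (0.40) and SMAD9 (0.73) of the BMP branch were higher in BT-549, whereas SMAD2 (-0.31), SMAD3 (-0.48) and SMAD6 (-0.95) were lower. SMAD6 read 4.81, 5.06 and 4.74 in DU-145 and 2.52, 2.46 and 2.61 in BT-549.

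Further down the pathway, SMURF2 read 4.66, 4.5 and 5.59 CPM in DU-145 and 2.16, 1.86 and 1.69 in BT-549 (log2 fold change -1.36, SE 0.12, adjusted p = 2.5e-13). LTBP4 read 3.21, 3.37 and 3.63 in DU-145 and 1.87, 1.92 and 1.78 in BT-549 (log2 fold change -0.87, SE 0.09, adjusted p = 1.7e-11), and ADAM17 was lower in BT-549 with a log2 difference of -1.18. FST went the other way, with 1.03, 0.938 and 0.885 in DU-145 and 2.45, 2.05 and 1.9 in BT-549 (log2 fold change 1.17, SE 0.13, adjusted p = 1.5e-10). Of the ID genes, ID2 (-0.84) and ID1 (-0.22) were lower in BT-549 and ID3 was higher (0.60). Cancer lines differ in DNA copy number, which sets coverage, and its part in these differences was not tested. The median difference of the other promoters within 5 Mb was -0.88 around ADAM17, -0.97 around SMURF2, -0.64 around SMAD6, -0.66 around SMAD3, -1.09 around TGIF1, -0.96 around NOG, -0.82 around LTBP1 and -0.90 around ID2. Relative to it ADAM17 differed by -0.30, SMURF2 by -0.39 and SMAD6 by -0.31, and BMP2 stayed at 2.55 and ACVR1C at -1.94. Of the 31 called promoters 5 turned, all from lower to higher in BT-549: NOG from -0.33 to 0.63, TGIF1 from -0.48 to 0.61, LTBP1 from -0.24 to 0.58, SMAD3 from -0.48 to 0.17 and ID2 from -0.84 to 0.05. Others kept their sign but shrank, TGFB1 from -0.60 to -0.05, TGFBR1 from -0.31 to -0.05, SKI from 0.47 to 0.06 and ID3 from 0.60 to 0.08.

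**Figure D3:**
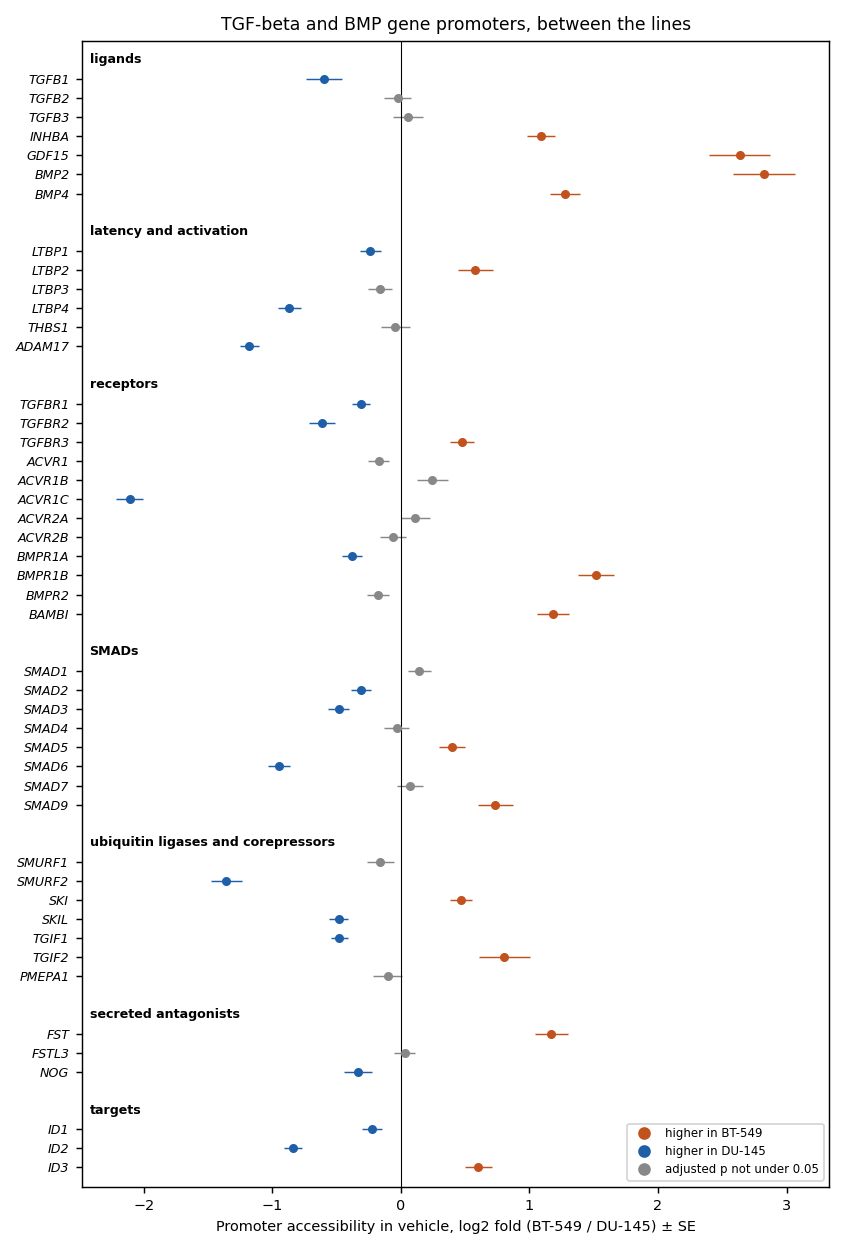
Log2 fold of promoter accessibility in BT-549 over DU-145 vehicle cells (x axis) for the 46 members with shared promoter bins (y axis, grouped by role). Points are edgeR estimates with their SE from 3 libraries a line, orange where higher in BT-549, blue where higher in DU-145 and grey where the adjusted p was not under 0.05. BMP2 and GDF15 lie farthest right and ACVR1C farthest left.

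Around the promoters, the bins from 1 to 50 kb were first summed for each member. In DU-145, 19 of 48 distal sums were higher and 10 lower with DOX, against 32.2% and 23.5% of all genes, and with the GC trend removed the split was 14 to 17. The gains were largest for NOG, which went from 0.301, 0.355 and 0.317 CPM to 0.725, 0.796 and 0.764 (log2 fold change 1.22, SE 0.21, adjusted p = 5.1e-06), and for TGFBR1, from 0.501, 0.376 and 0.432 to 1.04, 0.957 and 0.99 (log2 fold change 1.2, SE 0.11, adjusted p = 2.6e-12). INHBA (1.16), BMPR2 (1.15) and ACVR2A (1.03, from 3 bins) also gained at least 2-fold. The distal sums of ID1 (-0.48), ID2 (-0.25) and ID3 (-0.36) were lower, as their promoters were. By contrast, SMURF2, TGFBR1, BMPR2, TGFBR3, ACVR1, ACVR2A and INHBA paired a lower promoter with a higher distal sum. Of these only BMPR2 kept the lower promoter call with TMM factors. With the GC trend removed, TGFBR3, ACVR1 and ACVR2A lost the call of a higher distal sum. The share of all genes with this pairing was not counted.

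In BT-549, 8 of 45 distal sums were higher and 12 lower with DOX, against 18.3% and 19.4% of all genes. Without vehicle replicate 1 the calls dropped from 20 to 12, and without vehicle replicate 3 the number higher dropped to 3, or to 5 without DOX replicate 2 or 3. With bins in promoters of other genes left out, 4 were higher and 11 lower. By role, 7 of 11 receptors were lower and 2 higher, 2 of 9 ligands were lower and 1 higher, and 2 of 7 ligases and corepressors were lower and 1 higher, with no test between roles. BMPR1B went from 1.11, 1.24 and 1.27 CPM to 0.52, 0.294 and 0.643 (log2 fold change -1.29, SE 0.23, adjusted p = 2.8e-05). The corepressor TGIF1 went from 0.738, 0.726 and 0.766 to 0.225, 0.224 and 0.417 (log2 fold change -1.31, SE 0.27, adjusted p = 1.6e-04). BMPR2 was lower by a log2 fold change of -1.13, and THBS1, from 3 bins, was higher (1.04). In both lines INHBA, THBS1, SMAD3 and FSTL3 were higher and GDF15 and ACVR2B lower. Of the distal bins of FSTL3, 55 of 73 in DU-145 and 49 of 53 in BT-549 lie in promoters of other genes, and of those of GDF15 44 of 70 and 87 of 178. Without such bins FSTL3 was not called in either line (log2 fold change 0.31 in DU-145 and 0.46 in BT-549), ACVR2B was not called in BT-549 (-0.48), and INHBA, THBS1, SMAD3 and GDF15 were called in both lines in the direction given. LTBP4, ENG and TGIF2 also lost the call of a higher sum in BT-549, BAMBI lost that of a lower sum, and TGFB1 became lower (-0.64). By the sums over all distal bins, BMP7, TGFBR1, TGFBR3, ACVR1, BMPR2 and SMAD9 were higher in DU-145 and lower in BT-549. With the GC trend removed, 8 sums were higher and 10 lower in BT-549. There the receptors TGFBR1, TGFBR3, ACVR1 and BAMBI lost the lower call, as did SMAD9 and SKIL, whereas ACVR1B and BMPR1A gained it. Under that setting only BMP7 and BMPR2 kept opposite calls in the lines. The share of all genes with opposite calls was not counted. The ID genes were not called in the BT-549 distal sums.

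Between the lines with vehicle, the distal sums of 25 of 42 members were higher in BT-549 and 8 lower, against 42.3% and 35.4% of all genes. The split was 19 to 11 with TMM factors or the size factors of DESeq2, 19 to 12 with the GC trend removed and 30 to 7 with column sums over all bins. LTBP1 differed most, from 0.192, 0.228 and 0.352 CPM in DU-145 to 2.5, 2.57 and 2.79 in BT-549 (log2 fold change 3.37, SE 0.18, adjusted p = 2.3e-16). TGIF1 (2.26), BMP7 (1.82), TGFBR3 (1.78), SMAD9 (1.74) and SMAD5 (1.61) were higher by more than 1.5 on the log2 scale, and ADAM17 (-1.07), SMAD6 (-1.04) and BAMBI (-1.03) were lower by more than 1.

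Runs of adjoining distal bins were then tested as single accessible regions, 355 around the members in DU-145 and 202 in BT-549, leaving out bins in the promoters of other genes. Of the DU-145 regions, 150 lie within their member gene, and for 97 the nearest TSS is that of another gene. In DU-145, 122 regions were higher and 58 lower with DOX, against 41.8% and 12.8% of all 66114 distal regions. With a change of at least 2-fold, 75 opened and 16 closed, or 21.1% and 4.51%, against 27.5% and 6.38% of all. Both shares of the members lie below those of the table. The median log2 fold change was 0.19 for the members and 0.39 for all regions, and the split of calls was 91 to 90 with TMM factors, 88 to 98 with the size factors of DESeq2 and 86 to 111 with the GC trend removed.

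The 2-fold openings touched 32 of the 50 members and the closings 11, and the share of all genes touched was not counted. SMAD3 had 10 openings among 29 regions, SMURF2 7 among 12, LTBP1 6 among 13 and TGFB2 5 among 14. By role, openings made up 17 of 71 regions of the SMADs and 17 of 62 of the ligases and corepressors. Neither share lies above the 27.5% of all distal regions that opened. The ID genes had none among 34 regions and 2 closings. LTBP2, which encodes a matrix protein of the LTBP family, had 4 closings among 23 regions.

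Regions are named here if they hold at least 3 bins, reach a mean of 1 CPM in either group and do not overlap between the groups. Larger fitted folds among regions below that level, up to 3.9 near SMURF2 and -4.01 near SMAD1, both picked after their values were seen, rest on less coverage. The openings went from near background to about the mean bin. The region at chr2:157692601-157693300, intergenic and 48.4 kb downstream of a start site of ACVR1, a type I receptor for BMPs, read 0.135, 0.137 and 0.0833 CPM in vehicle and 1.78, 1.07 and 1.23 in DOX libraries (log2 fold change 3.47, SE 0.26, adjusted p = 8.8e-13). It held a peak in none of the vehicle libraries and in all 3 DOX libraries. Per the methods, regions were kept on peaks in at least 3 replicates, whatever the condition. A region with peaks in the DOX libraries alone therefore entered through them, and this pattern is no separate support for an opening. In BT-549 an overlapping region, picked after its values were seen, read 0.649, 0.527 and 0.716 with vehicle and 1.01, 1.73 and 1.35 with DOX (log2 fold change 1.1, SE 0.37, adjusted p = 0.028). The region at chr2:33210401-33211000, in an intron of LTBP1, read 0.0727, 0.164 and 0.226 with vehicle and 0.923, 1.12 and 1.23 with DOX (log2 fold change 2.81, SE 0.28, adjusted p = 2.8e-10), again with a peak in the DOX libraries alone. A second intronic region of LTBP1 at chr2:33238001-33238700 read 0.165, 0.282 and 0.161 with vehicle and 1.2, 1.18 and 1.08 with DOX (log2 fold change 2.43, SE 0.23, adjusted p = 1.5e-10). The remaining 2 were chr13:36965801-36966200, 45.0 kb upstream of SMAD9 in an intron of ALG5 (log2 fold change 2.59), and chr9:99054701-99056100, 48.0 kb upstream of TGFBR1 over an exon of COL15A1 (2.52). In all 5, every DOX library lay above every vehicle library, which the rule for naming requires.

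Among the closing regions, chr14:74562801-74563800 in an intron of LTBP2 read 2.16, 2.4 and 2.35 CPM in vehicle and 0.241, 0.17 and 0.224 in DOX libraries (log2 fold change -3.47, SE 0.17, adjusted p = 3.6e-17), about as large a change as the strongest opening. The region at chr2:8677401-8677800, 1.09 kb upstream of ID2 within the antisense gene ID2-AS1, read 1.98, 1.68 and 1.34 with vehicle and 0.262, 0.247 and 0.287 with DOX (log2 fold change -2.65, SE 0.25, adjusted p = 9.1e-11). Both kept a called peak in all 3 DOX libraries. Smaller closings lay in an intron of SMAD6 (chr15:66723701-66724300, log2 fold change -1.38), over an exon of SMAD1 (chr4:145557601-145558300, -1.25) and 43.3 kb upstream of LTBP2 in an intron of AREL1 (chr14:74655601-74656300, -1.22). In all 5 the groups stood apart, which the rule for naming requires.

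The sequences of 4 of these regions are shown, the 2 largest openings and the 2 largest closings of those named for DU-145, as 300 bases of the GRCh38 plus strand around the highest bin. Capitals mark the AP-1 letters TGAGTCA or TGACTCA, which are each other's reverse complement, and the SMAD palindrome GTCTAGAC. AP-1 is the dimer of JUN and FOS proteins.
ACVR1, opening in DU-145, chr2:157692801-157693100: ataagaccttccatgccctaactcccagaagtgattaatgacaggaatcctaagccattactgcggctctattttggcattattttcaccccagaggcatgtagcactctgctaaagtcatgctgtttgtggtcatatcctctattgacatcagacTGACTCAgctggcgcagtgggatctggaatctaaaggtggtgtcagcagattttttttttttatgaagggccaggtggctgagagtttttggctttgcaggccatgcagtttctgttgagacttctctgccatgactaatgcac
LTBP1, opening in DU-145, chr2:33210701-33211000: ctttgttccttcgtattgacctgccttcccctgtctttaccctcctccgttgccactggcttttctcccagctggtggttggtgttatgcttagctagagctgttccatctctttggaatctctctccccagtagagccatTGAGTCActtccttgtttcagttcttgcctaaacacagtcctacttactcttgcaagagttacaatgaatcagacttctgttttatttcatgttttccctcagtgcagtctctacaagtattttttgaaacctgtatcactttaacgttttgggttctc
LTBP2, closing in DU-145, chr14:74563001-74563300: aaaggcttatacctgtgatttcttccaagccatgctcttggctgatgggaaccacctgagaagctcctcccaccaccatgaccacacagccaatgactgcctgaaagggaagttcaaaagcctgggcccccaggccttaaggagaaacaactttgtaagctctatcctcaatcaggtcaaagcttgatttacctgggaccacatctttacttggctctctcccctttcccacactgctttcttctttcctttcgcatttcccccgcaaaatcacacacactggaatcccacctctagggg
ID2, closing in DU-145, chr2:8677601-8677900: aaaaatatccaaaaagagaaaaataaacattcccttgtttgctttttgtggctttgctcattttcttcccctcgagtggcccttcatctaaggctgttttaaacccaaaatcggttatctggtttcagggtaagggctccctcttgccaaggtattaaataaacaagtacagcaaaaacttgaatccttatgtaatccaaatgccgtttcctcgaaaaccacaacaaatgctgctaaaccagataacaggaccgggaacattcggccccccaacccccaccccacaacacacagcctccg
Each opening window holds 1 AP-1 match and neither closing window holds one. Over all members, 122 of 355 DU-145 windows (34.4%) held the AP-1 letters, against 33.9% of all distal regions. By direction they stood in 35 of 75 opening windows (46.7%), 4 of 16 closing windows and 83 of 264 others (31.4%). All opening regions of the table stood at 46.0%, all closing regions at 17.8% and the others at 30.5%. The SMAD palindrome stood in 3 member windows (0.845%) and 0.215% of all.

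**Figure D4:**
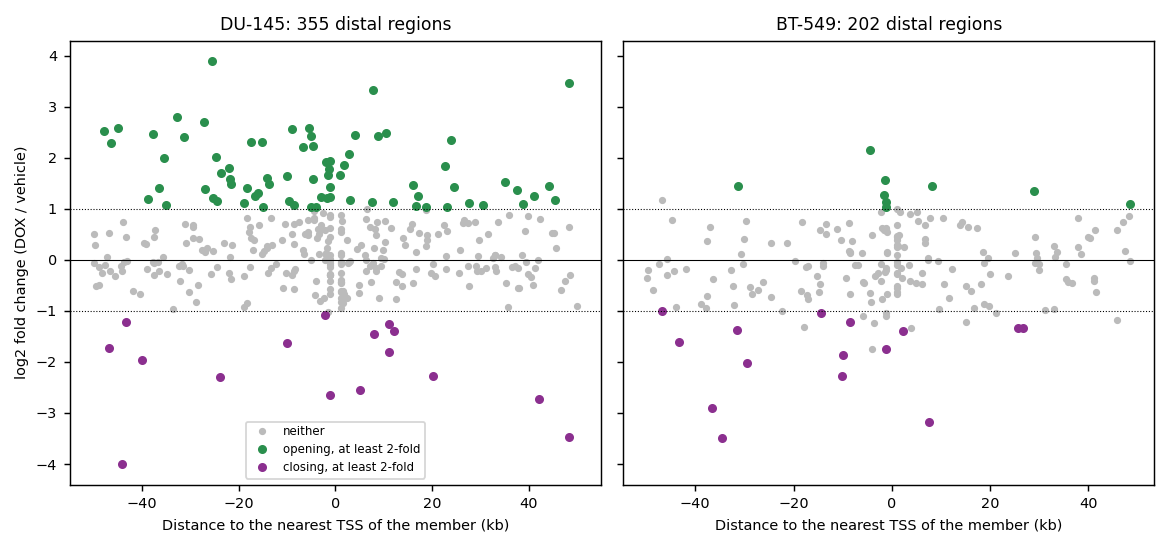
Log2 fold change with DOX over vehicle (y axis) of each distal accessible region of the members against its distance to the nearest TSS of its member (x axis, kb, negative upstream), in DU-145 (left, 355 regions) and BT-549 (right, 202 regions). Green regions opened and purple regions closed at least 2-fold with an adjusted p under 0.05, and grey regions did neither. Openings (75) outnumber closings (16) in DU-145 but not in BT-549 (9 and 15).

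In BT-549, 23 of the 202 regions were higher and 29 lower with DOX, against 9.49% and 20.9% of all 34431 distal regions. At least 2-fold, 9 opened and 15 closed (4.46% and 7.43%), against 5.89% and 15.4%. Of the 15 closings, 7 were among the 54 regions of receptors and 5 among the 37 of ligases and corepressors. Both shares lie below the 15.4% of all distal regions. The split of calls was 25 to 24 with TMM factors, 26 to 23 with the size factors of DESeq2 and 30 to 16 with the GC trend removed. Without vehicle replicate 1 or 2 the calls dropped from 52 to 33 and 34, those higher dropped to 13 without vehicle replicate 1 and to 12 without vehicle replicate 3, and those closing at least 2-fold dropped to 9 without vehicle replicate 2. Of the 202 regions, 73 (36.1%) held a peak in all 3 vehicle libraries and in no DOX library, against 45.2% of all 34431 distal regions of the table, whose DOX libraries are the shallower ones. None held a peak in all 3 DOX libraries and in no vehicle library, against 0.07% of all. A region with peaks in the vehicle libraries alone entered through them, and this pattern is no separate support for a closing.

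The strongest opening, at chr3:30625801-30626700 in an intron of TGFBR2, read 0.508, 0.471 and 0.28 CPM in vehicle and 2.46, 1.83 and 1.52 in DOX libraries (log2 fold change 2.16, SE 0.29, adjusted p = 2.5e-06). An intronic region of LTBP3 at chr11:65555501-65556300 read 0.81, 1.16 and 0.791 with vehicle and 3.39, 2.32 and 2.48 with DOX (log2 fold change 1.56, SE 0.25, adjusted p = 2.3e-05), and an intronic region of SMAD3 at chr15:67106701-67107600 read 1.08, 0.747 and 0.779 with vehicle and 2.83, 2.56 and 1.83 with DOX (log2 fold change 1.46, SE 0.25, adjusted p = 5.2e-05). All DOX libraries lay above all vehicle libraries, which the rule for naming requires. Weaker openings lay 31.3 kb upstream of SKI in an intron of FAAP20 (chr1:2195801-2196100, log2 fold change 1.45) and 29.0 kb downstream of ID1 (chr20:31634201-31634600, 1.35). The call near SKI was lost without vehicle replicate 2 (adjusted p = 0.087), and that near ID1 without vehicle replicate 1 or 3 (adjusted p up to 0.059) and in its highest bin.

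Among the closings, chr3:170346901-170347300, 10.1 kb upstream of SKIL in a noncoding gene, read 1.58, 1.02 and 1.33 CPM in vehicle and 0.226, 0.38 and 0.234 in DOX libraries (log2 fold change -2.27, SE 0.49, adjusted p = 8.2e-04). The region chr19:18389201-18391600, over an exon of LRRC25 downstream of GDF15, read 2.31, 2.94 and 1.98 with vehicle and 0.739, 0.829 and 1.15 with DOX (log2 fold change -1.39, SE 0.18, adjusted p = 1.1e-06). For BMPR1B an intronic region at chr4:95022901-95023600 read 1.12, 1.07 and 1.48 with vehicle and 0.588, 0.375 and 0.455 with DOX (log2 fold change -1.34, SE 0.35, adjusted p = 0.0045). A region over one of its exons at chr4:95129901-95130700 read 1.4, 1.76 and 1.41 with vehicle and 0.537, 0.246 and 0.952 with DOX (log2 fold change -1.34, SE 0.33, adjusted p = 0.0031). Both BMPR1B calls were lost with the GC trend removed, with adjusted p of 0.065 and 0.063, and the intronic one also in its highest bin (adjusted p = 0.075). The last, at chr10:28668401-28669000, lay 8.56 kb upstream of BAMBI (log2 fold change -1.22, or -0.66 and not called in its highest bin). In all 5 the groups stood apart, which the rule for naming requires.

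For BT-549 the windows of 2 openings and 2 closings are shown in the same way, the BMPR1B window because it holds the SMAD palindrome.
TGFBR2, opening in BT-549, chr3:30625901-30626200: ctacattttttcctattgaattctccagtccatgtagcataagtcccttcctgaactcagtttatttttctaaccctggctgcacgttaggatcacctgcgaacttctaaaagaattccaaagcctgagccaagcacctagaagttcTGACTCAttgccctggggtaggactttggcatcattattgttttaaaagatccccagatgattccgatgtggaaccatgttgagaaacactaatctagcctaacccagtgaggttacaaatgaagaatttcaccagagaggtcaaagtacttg
LTBP3, opening in BT-549, chr11:65555801-65556100: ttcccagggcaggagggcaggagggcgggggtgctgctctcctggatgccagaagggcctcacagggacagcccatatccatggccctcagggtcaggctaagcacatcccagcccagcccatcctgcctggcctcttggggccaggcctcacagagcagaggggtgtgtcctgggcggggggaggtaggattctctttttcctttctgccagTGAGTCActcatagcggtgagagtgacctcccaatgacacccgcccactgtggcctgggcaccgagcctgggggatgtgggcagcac
SKIL, closing in BT-549, chr3:170346801-170347100: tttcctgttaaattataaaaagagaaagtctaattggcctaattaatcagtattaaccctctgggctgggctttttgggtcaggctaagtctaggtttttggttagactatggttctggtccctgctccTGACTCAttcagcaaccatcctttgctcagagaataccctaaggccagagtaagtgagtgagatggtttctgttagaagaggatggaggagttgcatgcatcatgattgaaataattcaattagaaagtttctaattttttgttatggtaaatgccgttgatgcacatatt
BMPR1B, closing in BT-549, chr4:95130001-95130300: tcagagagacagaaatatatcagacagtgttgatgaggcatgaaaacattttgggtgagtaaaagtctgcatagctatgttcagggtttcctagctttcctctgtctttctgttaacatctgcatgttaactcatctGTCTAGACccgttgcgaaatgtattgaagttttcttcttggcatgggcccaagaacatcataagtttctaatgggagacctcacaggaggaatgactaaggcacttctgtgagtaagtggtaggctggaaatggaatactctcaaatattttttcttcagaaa
Both openings and the SKIL window hold 1 AP-1 match each, and the BMPR1B window holds 1 palindrome. The AP-1 letters stood in 5 of 9 opening, 4 of 15 closing and 37 of 178 other member windows, against 23.3%, 28.2% and 20.7% over the table. The palindrome stood in 2 of 202 member windows (0.99%) and 0.238% of all, counts too small to compare.

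Between the lines with vehicle, 156 member regions lay on shared bins. Of these, 84 were higher and 33 lower in BT-549, against 55.8% and 19.0% of all shared regions, and 55 and 20 differed at least 2-fold, against 38.3% and 10.0%. The split was 69 to 47 with TMM factors, 68 to 49 with the size factors of DESeq2 and 62 to 52 with the GC trend removed. In an intron of TGFBR2 at chr3:30689001-30689400, DU-145 read 0.177, 0.00295 and 0.0246 CPM and BT-549 1.77, 1.44 and 1.95 (log2 fold change 4.91, SE 0.45, adjusted p = 8.2e-12). The DU-145 vehicle coverage of that region sums to 8.48 over its bins and libraries, so the size of this fold is uncertain. The intronic LTBP1 region at chr2:33210401-33211000 read 0.0969, 0.22 and 0.305 in DU-145 and 3.01, 2.8 and 3.46 in BT-549 (log2 fold change 3.87, SE 0.25, adjusted p = 1.1e-15). Other regions higher in BT-549 lay in introns of LTBP1 (chr2:33158501-33159000, 3.32) and TGFBR3 (chr1:91844901-91845500, 2.94). Higher in DU-145 were the regions of TGFBR2 (chr3:30625801-30626700, -2.68), LTBP3 (chr11:65555501-65556300, -2.5) and SMAD3 (chr15:67106701-67107600, -2.46) that opened with DOX in BT-549, and one 44.7 kb upstream of SMURF2 (chr17:64707001-64707700, -1.95). This comparison shares its vehicle libraries with both DOX comparisons.

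The DOX effect on regions was higher in BT-549 for 13 of the 156 and lower for 41, against 4.93% and 36.0% of all shared regions, with a split of 21 to 33 under TMM factors, 23 to 29 under the size factors of DESeq2 and 26 to 24 with the GC trend removed. The LTBP1 region at chr2:33210401-33211000 read 0.0969, 0.22 and 0.305 CPM in DU-145 vehicle and 1.36, 1.63 and 1.8 in DU-145 DOX libraries, and 3.01, 2.8 and 3.46 in BT-549 vehicle and 2.86, 2.99 and 1.96 in BT-549 DOX libraries (difference -3.2, SE 0.37, adjusted p = 3.4e-09). It rose with DOX in DU-145 and stayed below every BT-549 library. The second LTBP1 region, chr2:33158501-33159000, differed by -3.16 and the intronic SMURF2 region chr17:64623101-64623500 by -2.74. The SMURF2 region read 0.643, 0.705 and 0.629 with vehicle and 2.1, 2.68 and 2.64 with DOX in DU-145, and 1.43, 2.29 and 1.17 with vehicle and 0.685, 1.08 and 1.03 with DOX in BT-549. It was higher with DOX in DU-145 and its DOX libraries lay below its vehicle libraries in BT-549. A region 36.6 kb upstream of BMPR2 at chr2:202339501-202339800 read 1.18, 0.882 and 1.27 with vehicle and 3.3, 2.48 and 2.79 with DOX in DU-145 and 0.889, 0.688 and 0.714 in BT-549 vehicle libraries, and it was covered in 1 of 3 BT-549 DOX libraries (adjusted p = 1.6e-05). No fold is given there, since the BT-549 DOX coverage of that region sums to 1.79 over its bins and libraries.

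**Figure D5:**
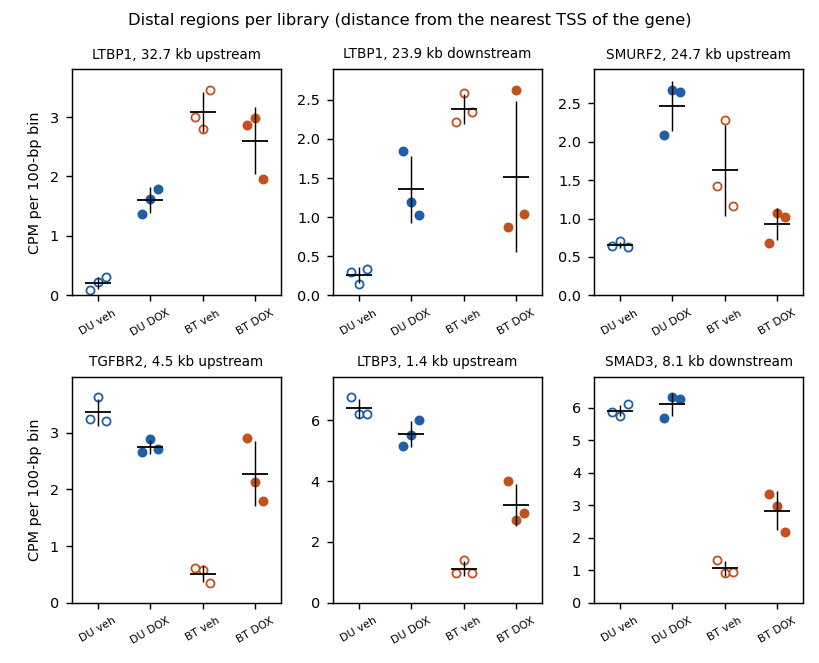
Accessibility (y axis, CPM per 100-bp bin over the bins shared by both tables) of 6 distal regions in each library, by line and treatment (x axis, DU for DU-145, BT for BT-549, veh for vehicle), titled by member and distance from its nearest TSS. Open points are vehicle and filled points DOX libraries, and black marks give the mean ± SD of 3 libraries. The regions of the upper row rise with DOX in DU-145, and those of the lower row rise with DOX in BT-549 and start far below DU-145.

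Across genes, the change of a promoter in DU-145 went with its level. Spearman's rho between the mean level over the 6 libraries and the log2 fold change was -0.57 over the 47 members and -0.45 over all promoters, and in BT-549 it was 0.39 and 0.09. With GC content rho was 0.01 and 0.11 in DU-145 and 0.01 and 0.21 in BT-549. These are descriptions over genes of the same libraries, which share depth and scaling and are not independent replicates. At the level of single 100-bp bins, called at a change of at least 2-fold with an adjusted p under 1e-05 in DU-145 and under 0.01 in BT-549, 139 of 3549 distal member bins in DU-145 opened and 60 closed (3.92% and 1.69%, against 5.0% and 1.59% of all bins), and 29 and 45 of 2380 did so in BT-549 (1.22% and 1.89%, against 2.07% and 2.87%). Of the promoter bins, 27 of 1339 opened and 9 closed in DU-145 (2.02% and 0.672%), where 5 promoter sums were higher and 18 lower, and 30 of 1183 opened and 1 closed in BT-549 (2.54% and 0.0845%), beside the shares of all bins just given.

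The promoter sequences of 46 members were found in RefSeq (GRCh38.p14). That of ID3, which moved in opposite directions in the lines, and that of SMAD3 at 1 of its 5 start sites in the table are shown over the 250 bases before the start site. The SMAD3 promoter sum runs over 65 bins around 18 TSS, so that its gain in DU-145 is not tied to the window shown. They are written 5′ to 3′ on the gene's strand, which is minus for ID3 and plus for SMAD3. Capitals mark GGCGCC, a GC-rich palindrome of the kind that BMP-branch SMADs can bind.
ID3 promoter, chr1:23559502-23559751: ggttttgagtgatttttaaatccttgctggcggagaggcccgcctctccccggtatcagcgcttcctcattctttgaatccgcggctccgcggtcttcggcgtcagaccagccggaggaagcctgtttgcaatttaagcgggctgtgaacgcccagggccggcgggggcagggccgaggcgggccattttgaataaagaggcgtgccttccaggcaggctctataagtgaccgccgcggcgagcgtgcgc
SMAD3 promoter, chr15:67065352-67065601: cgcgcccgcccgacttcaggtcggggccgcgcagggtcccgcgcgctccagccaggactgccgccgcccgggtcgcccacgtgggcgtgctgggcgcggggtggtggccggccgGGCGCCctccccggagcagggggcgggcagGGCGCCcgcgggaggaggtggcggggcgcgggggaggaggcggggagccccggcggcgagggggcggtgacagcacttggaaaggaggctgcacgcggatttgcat
The letters stand in 2 places of the SMAD3 window shown, in none of the windows of its other 4 start sites and not in that of ID3. They were found in 20 of 88 member start sites (22.7%) and in 16.4% of all 35116 start sites. A match is a description of letters and not of binding.

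Other genes of the pathway, a list of 54 written from general knowledge, were followed in the same way. In DU-145, 41 had promoter bins, of which 3 were higher and 14 lower with DOX. That is 7.32% and 34.1%, against 8.27% and 39.0% of all promoters tested. FBN2, a fibrillin that binds latent complexes, went from 0.446 ± 0.0769 to 1.11 ± 0.0939 CPM, log2 fold change 1.28, and AMH, the anti-Mullerian hormone, from 0.40 ± 0.0264 to 0.75 ± 0.0407 CPM, log2 fold change 0.90. BMPER, a BMP-binding protein, went from 2.74 ± 0.146 to 1.64 ± 0.104 CPM, log2 fold change -0.74, and the ligand GDF5 from 3.88 ± 0.517 to 2.52 ± 0.139 CPM, log2 fold change -0.62. In BT-549, 6 of 42 were higher, led by E2F4 (from 0.969 ± 0.0639 to 1.73 ± 0.684 CPM, log2 fold change 0.82) and the coactivator CREBBP (from 1.3 ± 0.187 to 2.26 ± 0.165 CPM, log2 fold change 0.79). Lower were 5, led by the integrin ITGB8, an activator of TGF-beta (from 3.84 ± 0.58 to 2.14 ± 0.163 CPM, log2 fold change -0.84), and TGFBRAP1 (from 1.69 ± 0.239 to 0.964 ± 0.173 CPM, log2 fold change -0.80). Of the 42, 14.3% were higher and 11.9% lower, against 18.7% and 6.69% of all promoters tested. Between the lines with vehicle, 13 of 37 were higher in BT-549, led by AMH (from 0.259 ± 0.111 to 0.809 ± 0.226 CPM, log2 fold change 1.63) and FBN1 (from 1.05 ± 0.152 to 2.77 ± 0.306 CPM, log2 fold change 1.39), and 8 were lower, led by the cell-cycle inhibitor CDKN1A (from 4.24 ± 0.389 to 2.14 ± 0.196 CPM, log2 fold change -1.0) and COL1A1 (from 4.61 ± 0.404 to 2.53 ± 0.344 CPM, log2 fold change -0.86). Of the 37, 35.1% were higher and 21.6% lower in BT-549, against 34.0% and 40.4% of all promoters tested.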

How the data were processed

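ATAC-seq libraries of DU-145 and BT-549 cells were analysed from the deposited tables, 3 libraries a group. Per the methods, the authors aligned reads to GRCh38 with BWA, removed duplicates with Picard and called peaks in each library with MACS2 2.2.7.1. They merged the peaks of each line and kept regions with a peak in at least 3 replicates, whatever the condition. The mean coverage of each library was then taken in 100-bp bins. These deposited bin values are estimated counts that need not be whole and are not scaled for depth. The peak lists, deposited for each library, give a fold enrichment over local background, a ratio, and −log10 of the p-value and q-value, of which only presence of a peak was used.

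Bins were summed per promoter, distal zone or region, rounded, and tested with edgeR 4.0.16 (robust quasi-likelihood, R 4.3.3, Benjamini-Hochberg adjustment over all features of a table, total of at least 10). The library size was the column sum, and comparisons between the lines used the 321392 bins that both tables hold. DESeq2 1.42.0, limma 3.58.1 (pseudocount 1 CPM), TMM factors and a GC trend (loess span 0.3, prior count 0.5) served as alternatives. The scripts were tested on simulated data. GC content and sequences were read from GRCh38 and coordinates are on that build. Depth bounds the precision most in the BT-549 DOX libraries, and intervals of counting error were not computed, since bin values are not reads. The 50 members, the roles and the other lists were chosen with earlier results of these data known. Up to 5 promoters and distal regions per direction were named by size of change in each DOX comparison, up to 6 promoters and 4 regions between the lines and up to 4 for the difference of DOX effects, and further members were named to complete a role. A cell type marker of the fixed list is not reported here.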

Additional observations from a re-analysis of the deposited data

Results flagged for a closer look

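The DOX effects on promoters differed between the lines, by the interaction term of edgeR at an adjusted p under 0.05, for 18 members, and each value here is the log2 effect in BT-549 minus that in DU-145. ADAM17 (1.22), SMURF2 (1.0), ID3 (0.85), ID1 (0.83), SMAD2 (0.70), SMAD6 (0.67), ID2 (0.59), SMAD4 (0.56), SMURF1 (0.54), TGFBR2 (0.50), LTBP3 (0.49), BMPR2 (0.44), TGFBR3 (0.41), SKI (0.39) and SKIL (0.39) had the higher effect in BT-549. BMP4 (-0.69), NOG (-0.62) and LTBP1 (-0.34) had the higher effect in DU-145. The split of 15 to 3 became 9 to 6 with TMM factors, 9 to 7 with the size factors of DESeq2 and 8 to 6 with the GC trend removed, and of the 15 only ADAM17, SMURF2, ID1, ID2, ID3, SMAD2, SMAD6 and LTBP3 kept the call under all of these. In the single highest bin of each promoter the split was 11 to 3. There ID2, LTBP3, SMURF1 and TGFBR2 lost the call, as did LTBP1 on the other side. The median of all promoters was 0.14, and depth moved with DOX in BT-549 alone. The part of that gap in the differences was not tested.

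The same term stood out for distal regions near SMURF2 (-2.74), LTBP1 (-3.20 at chr2:33210401-33211000 and -3.16 at chr2:33158501-33159000) and BMPR2 (-4.37). The value at BMPR2 rests on a summed BT-549 DOX coverage of 1.79 and gives no usable fold.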

How the results depend on the processing

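Of the recomputed counts of called members or regions, taken over both directions, 169 stayed within 1.5 times of the value reported and 5 did not. Taken by direction, 27 of 173 recomputed counts of higher members or regions and 28 of 173 of lower ones moved by over 1.5 times, among them the DU-145 promoters, DU-145 regions and lower interaction terms under the other scalings. Of the recomputed values of named promoters and regions, 942 kept their direction and their side of the threshold, 20 lost the call, 6 moved and 2 turned. Leaving out 1 library at a time gave 12 to 16 called distal sums (20 with all libraries) and 33 to 51 called distal regions (52) in BT-549. Counting only regions with a 100-bp bin past the stricter cutoffs left 59 in DU-145 (180 called as regions) and 21 in BT-549 (52). SMAD3 turned to -0.11 in its highest bin in DU-145. Between the lines, ID2 turned to 0.055 once the median within 5 Mb was subtracted, as did NOG (0.63), TGIF1 (0.61), LTBP1 (0.58) and SMAD3 (0.17). Of the 31 called promoters 26 kept their direction, but TGFB1 (-0.05), TGFBR1 (-0.05), SKI (0.06) and ID3 (0.08) were left with little difference. The cause was not tested. By direction, DESeq2 gave 10 higher and 10 lower promoters and 79 higher and 90 lower regions in DU-145, 23 and 16 regions in BT-549, and 26 and 30 regions for the difference of DOX effects. The replicate numbers did not pair the libraries, since the correlation of deviations of same-numbered libraries ran from -0.03 to 0.20 over promoters and from -0.04 to 0.07 over regions. With a replicate block 25 promoters were called in DU-145 and 13 in BT-549, and 176 and 42 regions, and no count moved by over 1.5 times. Depth limits the BT-549 DOX libraries most, where weak regions hold little coverage.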
